A study of Mus musculus with 6 samples.

Results

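The mouse genes described here encode the nuclear subunits of the mitochondrial respiratory chain. They were chosen by name, as the rows whose symbol starts as those of complex I (Nduf), complex II (Sdha to Sdhd), complex III (Uqcr and Cyc1), cytochrome c (Cycs), complex IV (Cox4 to Cox8) and complex V (Atp5), without names that carry -ps. This gave 91 of the 55536 genes in the table: 38 in complex I, 4 in complex II, 9 in complex III, 1 for cytochrome c, 21 in complex IV and 18 in complex V. Ndufa4 and its paralog Ndufa4l2 were counted with complex IV, where the Ndufa4 protein resides, and not with complex I as the names say. Atp5o was listed under 2 identifiers, so the 91 genes carried 90 symbols. No member was chosen by its measured value. Ndufb1-ps was left out by its name, although it is annotated as a long noncoding RNA and was at 146, 154 and 145 TPM in labelled knockout livers, against 93.3, 103 and 104 TPM in WT livers, and the rule does not take in Ndufab1.

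Complexes I to IV pass electrons from NADH and succinate through coenzyme Q and cytochrome c to oxygen, and complex V, the ATP synthase, uses the resulting proton gradient to make ATP. All but complex II are built from both nuclear and mitochondrially encoded subunits. Hepatocytes are rich in mitochondria and draw on this chain for gluconeogenesis, urea synthesis and fatty acid oxidation.

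RNA from mouse liver was sequenced in 6 libraries, 3 in each of 2 groups, and each library is called a liver where values are given. C57BL/6 mice of 8 to 10 weeks with floxed Vmp1 alleles received an intravenous adeno-associated virus (AAV8) with the TBG promoter, which is active in hepatocytes, and livers were taken after 2 weeks. The virus carried Cre recombinase (AAV8-TBG-cre) in the group labelled H-VMP1 KO, and nothing in its place (AAV8-TBG-null) in the WT group, whose mice also carried the floxed alleles. VMP1 sits in the membrane of the endoplasmic reticulum and serves autophagy and lipid export, and the series title concerns lipoprotein secretion and steatohepatitis. The labels do not say that each library came from its own animal, and p-values then cover only the spread among these libraries, which may be technical in part. Values are TPM, transcript abundances corrected for transcript length and scaled to a fixed total, and the depth behind them is unknown.

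Vmp1 was not lower in the livers labelled as knockout. Its level was 157, 136 and 137 TPM in labelled knockout livers, against 70.7, 96.5 and 88.6 TPM in WT livers, so every direction given here rests on the labels, and these livers are called labelled knockout livers. A gene-level value does not show whether the floxed exons were removed. The Mup genes, 22 very abundant hepatocyte genes for secreted urinary proteins, held 0.545, 0.345 and 0.341% in labelled knockout livers, against 17.9, 11.6 and 21.2% in WT livers, as a share of all TPM. Because TPM shares a fixed total among all genes, the other genes' values depend on that share. At least 1 TPM was reached by 12994, 12989 and 12838 genes in labelled knockout livers, against 10921, 11064 and 10835 genes in WT livers. As deposited, 9537 of 12796 tested genes, or 74.5%, were called higher and 1369, or 10.7%, lower, and the median log2 fold change over all tested genes was 0.77.

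Most results are given as deposited and also ratio-scaled. Ratio-scaled means that each library was divided by the median of its genes' ratios to their geometric mean over libraries (median-of-ratios scaling). That sets the typical gene at no change. A fold change or call given with no scaling named is as deposited only. Once ratio-scaled, the all-gene median was -0.01, 35.1% of tested genes were higher and 36.6% lower. Ratios between respiratory chain genes within a library, and their shares of their own summed TPM, are the same under any scaling by 1 factor per library.

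Promoter windows of members at both ends of the range of fold changes are shown, since the respiratory chain genes share known regulators. In mammals, NRF1, the ETS factor GABPA and YY1 are known to bind promoters of many respiratory chain genes. Each window holds 250 bases before and 50 bases after the annotated start, from RefSeq on GRCm38.p6, 5′ to 3′ on the gene's strand. Cox7a2l, at chr17:83514284-83514583 on the minus strand, and Uqcr10, at chr11:4704295-4704594 on the minus strand, had the largest fold changes among members with a mean of at least 5 TPM. Cycs, at chr6:50566520-50566819 on the minus strand, encodes somatic cytochrome c, and Sdha, at chr13:74350191-74350490 on the minus strand, had the most negative fold change of complex II. Capitals mark a match, on either strand, to the NRF1 core CGCANGCG (in Uqcr10, Sdha and the downstream match of Cycs) or to the cyclic AMP response element TGACGTCA (the upstream match of Cycs), and none of these matches overlap.
Cox7a2l: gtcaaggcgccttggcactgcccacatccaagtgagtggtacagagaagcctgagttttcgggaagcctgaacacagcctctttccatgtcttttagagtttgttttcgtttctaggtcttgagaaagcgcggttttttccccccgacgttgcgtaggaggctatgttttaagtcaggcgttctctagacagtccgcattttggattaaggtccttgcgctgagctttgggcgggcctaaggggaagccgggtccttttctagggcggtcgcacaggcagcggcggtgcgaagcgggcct
Uqcr10: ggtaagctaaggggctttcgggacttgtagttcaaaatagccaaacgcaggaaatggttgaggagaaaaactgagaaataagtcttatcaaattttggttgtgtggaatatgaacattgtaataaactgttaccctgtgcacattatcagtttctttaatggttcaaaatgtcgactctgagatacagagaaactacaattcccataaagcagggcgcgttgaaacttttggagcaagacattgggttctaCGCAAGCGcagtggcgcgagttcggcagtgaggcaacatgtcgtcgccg
Cycs: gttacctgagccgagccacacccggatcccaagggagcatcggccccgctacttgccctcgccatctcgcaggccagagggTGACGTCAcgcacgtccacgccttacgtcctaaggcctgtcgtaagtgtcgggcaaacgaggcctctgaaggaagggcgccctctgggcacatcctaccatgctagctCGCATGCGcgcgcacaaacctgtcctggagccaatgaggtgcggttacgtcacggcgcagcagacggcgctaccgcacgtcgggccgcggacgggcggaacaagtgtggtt
Sdha: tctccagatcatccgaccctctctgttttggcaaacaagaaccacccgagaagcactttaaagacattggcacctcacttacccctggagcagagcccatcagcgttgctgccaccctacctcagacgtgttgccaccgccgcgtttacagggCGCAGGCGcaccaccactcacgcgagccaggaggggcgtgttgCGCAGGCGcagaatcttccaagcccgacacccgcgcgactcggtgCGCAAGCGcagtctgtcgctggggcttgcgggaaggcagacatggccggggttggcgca

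A window was at hand for 64 of the 82 members tested. The NRF1 core was found in 26 of the 64 (40.62%), against 19.11% of the 9524 tested genes with a window and 8.21% of all 32851 windows. The ETS site CCGGAAG was found in 16 (25%), against 20.31% of tested genes and 8.86% of all windows. The YY1 site AAGATGGCG was found in 7 (10.94%), against 3.7% of tested genes and 1.4% of all windows. The cyclic AMP response element was found in 5 (7.81%), against 3.49% and 1.79%. The antioxidant response element TGACNNNGC, the site of NRF2, was found in 9 (14.06%), against 16.87% and 12.39%. Members with the NRF1 core had a median log2 fold change of 0.27 as deposited, and members without it 0.29. For the ETS site the same medians were 0.27 and 0.28. A match describes the letters in the window and was not tested as a binding site.

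Of the 91 members, 82 passed the filter of at least 1 TPM in at least 3 libraries and were tested, and 9 did not. The 9 were the pseudogenes Ndufa11b, Ndufs6b and Cox6c2, the tissue-restricted isoforms Cox4i2, Cox6b2, Cox7b2, Cox8b and Cox8c, and the second Atp5o identifier. Cox7b2 and Cox8c were listed at 0 in all 6 libraries. Cox6a2 passed only through the labelled knockout livers, with no WT library at 1 TPM, so the filter fixed its direction. Most members were well expressed, with a mean of at least 20 TPM over the 6 libraries in 78 of the 82. Their order was nearly the same in both groups (Spearman rho 0.95 across the 82 members, which share libraries and are not replicates). Atp5b had the highest mean in labelled knockout livers, at 817, 942 and 886 TPM in labelled knockout livers, against 611, 724 and 629 TPM in WT livers. Cox6b1, given with complex IV, had the highest mean in WT livers.

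As deposited, 42 of the 82 tested members (51.2%) were called higher in labelled knockout livers and 1 was called lower, and once ratio-scaled 1 was higher and 76 were lower. The background was 74.5% higher and 10.7% lower as deposited, so the share of members called higher was below that of all genes. Once ratio-scaled, it was 35.1% higher and 36.6% lower, so the share of members called lower was above that of all genes. Like Cox6a2, 1614 of the 12796 tested genes reached 1 TPM in no WT library. Without them, a count added after the data were seen, 41 of 81 members were higher against 70.9% of genes as deposited, and once ratio-scaled none were higher and 76 lower, against 27.8% and 41.9% of genes. The median log2 fold change of the members was 0.26 as deposited (0.77 over all genes) and -0.68 once ratio-scaled (-0.01 over all genes). The members were also tightly grouped, with an interquartile range of 0.34 as deposited, against 0.98 over all genes. Of the 82, 77 lay below the all-gene median as deposited and 64 did so under all 4 scalings tried, while Cox7a2l, Uqcr10 and Cox6a2, the last with its direction fixed by the filter, lay above it under all 4. Taken over every gene above 0 TPM in at least 1 library, with no other filter, the members' median was 0.12 above the all-gene median. Among the 1989 tested genes with a mean of at least 50 TPM the median was 0.70 as deposited.

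Which direction a member is given therefore depends on the scaling. Between the deposited and the ratio-scaled values, 36 members were called in both with opposite signs and 2 in both with the same sign. Those 2 were Ndufa4l2, lower, and Cox6a2, whose direction the filter fixed. Another 39 members were not called as deposited and were called lower once ratio-scaled, and 5 called higher as deposited were not called once ratio-scaled. With quantile normalization 6 members were higher and 34 lower (background 35.3% and 35.4%), and the member median was -0.20. Leaving out the genes that reached 1 TPM in no WT library, Cox6a2 among them, 5 were higher and 34 lower. The background was then 31.7% and 39.6%. Rescaled with the Mup, mitochondrially encoded and 20 most abundant genes left out of the total, 8 were higher and 26 lower (background 60.3% and 17.5%), and the median was -0.13.

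Groups did not overlap in 48 members as deposited. In 47 all 3 labelled knockout livers were above all WT livers (75.5% of all tested genes did so), and in 1, Ndufb3, all 3 were below (11.3% of all tested genes). The 47 include Cox6a2, and the 75.5% includes the 1614 tested genes that, like it, reached 1 TPM in no WT library. The 11.3% includes 158 genes that reached 1 TPM in no labelled knockout library. For all of these genes the filter fixed the separation. The count of 42 called higher was 27 when the first WT library was left out and 49 when the second was left out.

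**Figure D1:**
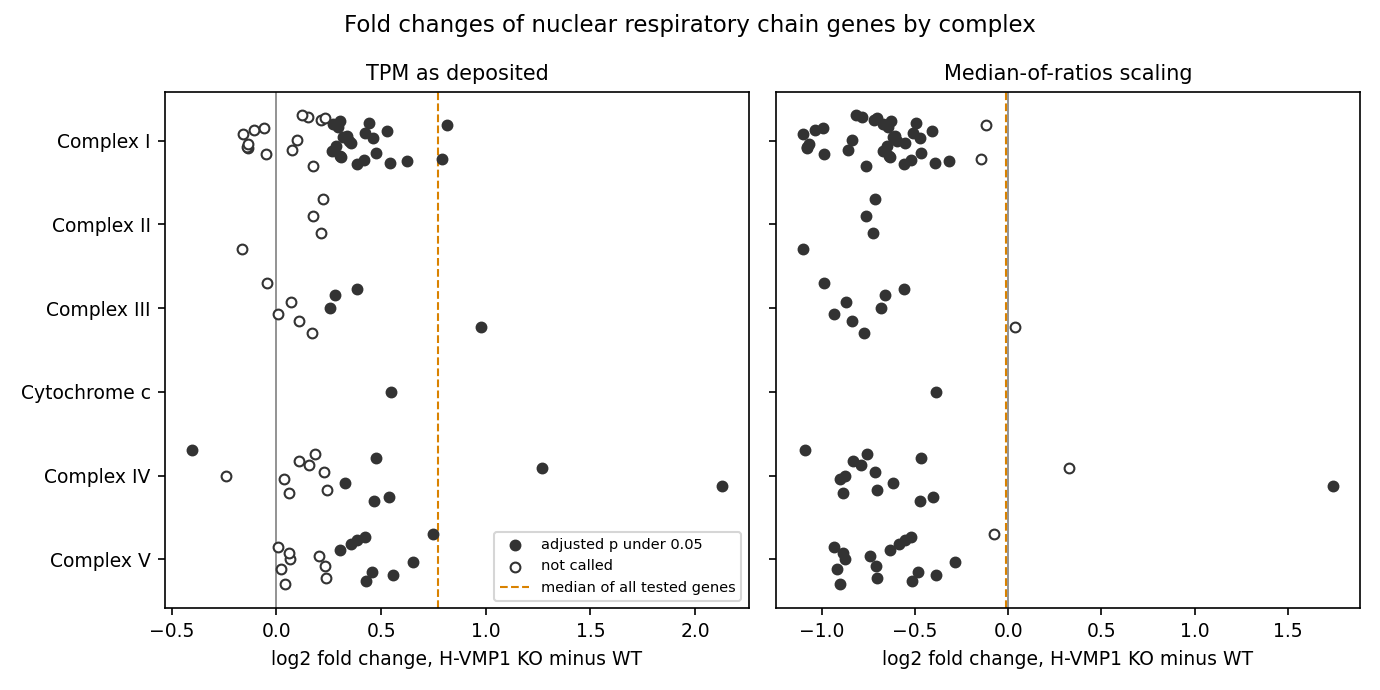
Log2 fold change of each tested member (horizontal axis, labelled knockout minus WT) by complex, as deposited on the left and once ratio-scaled on the right; filled points have a limma adjusted p under 0.05 and the dashed line is the median of all tested genes. Most members lie between 0 and 0.77 as deposited and below 0 once ratio-scaled, in every complex, with Cox6a2 (2.13), Cox7a2l (1.27) and Uqcr10 (0.98) at the right of the deposited panel.

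Summed over all 91 members, the level was 19374, 21549.8 and 20262 TPM in labelled knockout livers, against 15587, 18469 and 16905 TPM in WT livers. All 3 labelled knockout livers were above all WT livers, the mean was 1.20 times that of WT livers as deposited, and it was 0.626 times once ratio-scaled. What each complex took of this sum was nearly the same in both groups. Complex I took 27.8% ± 0.270 in labelled knockout livers and 28.0% ± 0.290 in WT livers (SD, n = 3 each), complex III 14.2% ± 0.179 in labelled knockout livers and 14.6% ± 0.260 in WT livers, and complex V 26.7% ± 0.310 in labelled knockout livers and 26.6% ± 0.182 in WT livers. The shares of complexes I and V overlapped, and that of complex III was slightly lower in all 3 labelled knockout livers. Complex IV took 27.5% ± 0.0612 in labelled knockout livers and 26.7% ± 0.183 in WT livers, with no overlap. Complex II took 3.07% ± 0.0297 in labelled knockout livers and 3.41% ± 0.0708 in WT livers, also with no overlap, and cytochrome c took 0.718% ± 0.0218 in labelled knockout livers and 0.590% ± 0.0636 in WT livers. Complex II was thus a smaller part of the respiratory chain transcripts in all 3 labelled knockout livers. Cytochrome c and complex IV, as counted here, were a larger part. The complex IV sum includes Cox7a2l, at 267, 242 and 312 TPM in labelled knockout livers, against 96.9, 136 and 108 TPM in WT livers. The share of complex IV without this gene was not computed, so a gain across complex IV as a whole is not shown. With 3 libraries a group, the smallest exact permutation p is 0.1, so none of these shares could pass a threshold of 0.05.

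**Figure D2:**
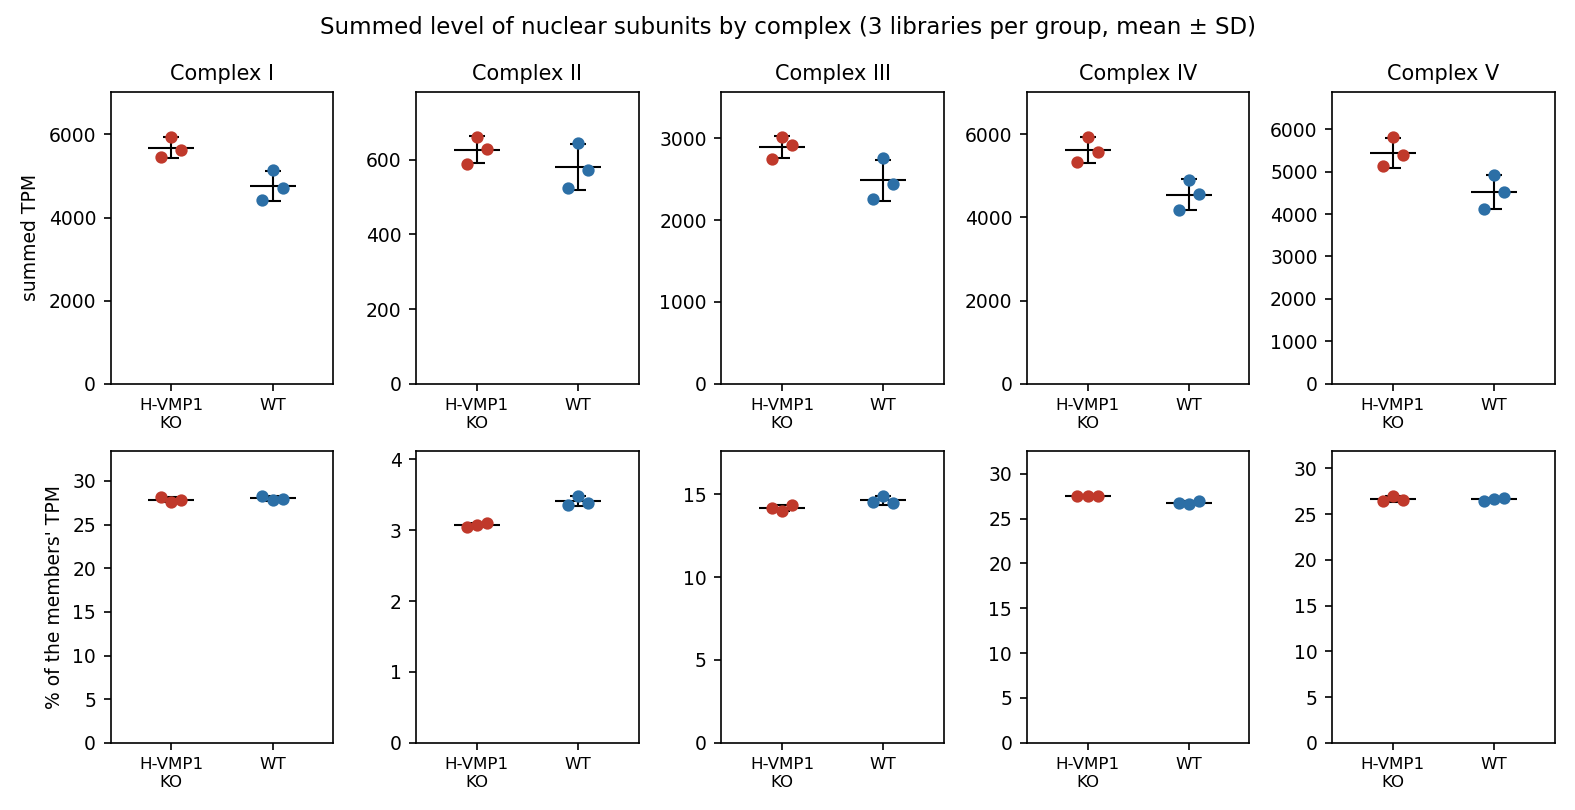
Summed TPM of the nuclear subunits of each complex (top row) and their percent of the summed TPM of all members (bottom row) in each library, labelled knockout left of WT; black marks give the mean ± SD of 3 libraries. The mean sums are higher in labelled knockout livers as deposited, with overlap in complexes II and III (the total is 0.626 times the WT mean once ratio-scaled). The bottom row shows close shares for complexes I, III and V. In labelled knockout livers the share is lower than in WT livers for complex II (3.07% and 3.41%). It is slightly higher for complex IV with Cox7a2l included (27.5% and 26.7%).

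In complex I, the NADH dehydrogenase through which most electrons enter, 22 of 36 tested members were called higher as deposited and none lower, with a median log2 fold change of 0.30, and once ratio-scaled none were higher and 34 were lower, with a median of -0.64. Both its share called higher (61.1%) and its median were below those of all tested genes (74.5% and 0.77). The 7 core subunits, which carry the flavin and the iron-sulfur clusters, and the accessory subunits around them were also counted apart. As deposited, 2 of 7 core subunits were higher, with a median of 0.21, and 20 of 29 accessory subunits were higher, with a median of 0.32. The difference between these medians was not tested.

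Ndufs1, the largest core subunit, was at 49.3, 65.9 and 56.3 TPM in labelled knockout livers, against 59.1, 64.5 and 60.4 TPM in WT livers. The groups overlapped and its log2 fold change was -0.11 ± 0.12 (SE; adjusted p = 0.397), with -1.04 once ratio-scaled. Ndufv1, which binds NADH, was at 109.6, 126 and 131 TPM in labelled knockout livers, against 99.2, 118 and 94.3 TPM in WT livers. These also overlapped. Ndufs7, a core subunit close to the coenzyme Q site, was at 104, 101 and 103 TPM in labelled knockout livers, against 75.3, 90.6 and 84 TPM in WT livers, without overlap, and its log2 fold change was 0.30 as deposited and -0.63 once ratio-scaled. The deposited call of Ndufs7 was lost without the first or the third labelled knockout library or the first WT library (limma adjusted p of 0.0554, 0.0516 and 0.0659).

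The accessory subunits Ndufs4, Ndufa2 and Ndufa12 had the largest increases of complex I as deposited. Ndufs4, whose loss in humans and mice impairs complex I assembly and causes Leigh syndrome, was at 133, 154 and 146 TPM in labelled knockout livers, against 69.1, 92.2 and 84.8 TPM in WT livers. The lowest labelled knockout liver was well above the highest WT liver. The log2 fold change was 0.82 ± 0.12 (SE; adjusted p = 0.000163) as deposited and -0.12 (adjusted p = 0.422) once ratio-scaled. Ndufa2 was at 176, 189 and 182 TPM in labelled knockout livers, against 88.6, 120.2 and 108 TPM in WT livers. It too did not overlap, with a log2 fold change of 0.79 ± 0.12 (SE; adjusted p = 0.000184) as deposited and -0.14 once ratio-scaled. Ndufa12 was at 223, 219 and 217 TPM in labelled knockout livers, against 134, 149 and 144 TPM in WT livers, again without overlap, and had 0.62 as deposited and -0.32 once ratio-scaled. At the other end, Ndufb9 (-0.16), Ndufb11 (-0.14), Ndufb10 (-0.14) and Ndufb3 (-0.13), subunits of the membrane arm, had negative log2 fold changes that did not pass the test as deposited.

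The balance between these subunits does not depend on a scaling by 1 factor per library, which quantile normalization is not. Ndufs4 relative to Ndufs1 stood at 2.71, 2.33 and 2.59 in labelled knockout livers, against 1.17, 1.43 and 1.40 in WT livers. This ratio averaged 2.54 ± 0.191 in labelled knockout livers and 1.33 ± 0.144 in WT livers (SD, n = 3 each), or 1.91 times as high. Ndufa2 relative to Ndufs1 averaged 3.23 ± 0.357 in labelled knockout livers and 1.72 ± 0.192 in WT livers, and Ndufa12 relative to Ndufs1 3.90 ± 0.602 in labelled knockout livers and 2.32 ± 0.0602 in WT livers. None of the 3 overlapped between groups. Ndufs1 relative to Ndufv1, both core subunits, averaged 0.468 ± 0.0493 in labelled knockout livers and 0.595 ± 0.0468 in WT livers, without overlap. Partner genes for the ratios were chosen with the values known, so no test is given for them.

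For 39 members the annotation holds another gene that overlaps them, and whether reads were counted by strand is not given in the sources used here. Ndufb4 and its copy Ndufb4c cannot be told apart with certainty. Ndufb4c, annotated as a processed pseudogene at chr15:73809507-73809896 (GRCm38, minus strand), was at 240.2, 248 and 228 TPM in labelled knockout livers, against 182, 199.7 and 181 TPM in WT livers. Ndufb4 itself, at chr16:37647170-37654453 (minus strand), was at 27.9, 30.3 and 27.1 TPM in labelled knockout livers, against 21.5, 23.6 and 20.9 TPM in WT livers. The pseudogene's share was the larger in every library, with a ratio of 8.39 ± 0.210 in labelled knockout livers and 8.53 ± 0.112 in WT livers, and how reads were shared between the copies is not given in the sources used here.

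Complex II, succinate dehydrogenase, is also an enzyme of the TCA cycle and has no mitochondrially encoded subunit. None of its 4 members passed the test as deposited, where the median log2 fold change was 0.20, and all 4 were lower once ratio-scaled, where it was -0.74. The background was 74.5% higher and 10.7% lower with a median of 0.77 as deposited. Once ratio-scaled it was 35.1% higher and 36.6% lower with a median of -0.01. Sdha, the flavoprotein that oxidises succinate, was at 134, 146 and 149.5 TPM in labelled knockout livers, against 144, 174 and 163 TPM in WT livers. The groups overlapped, and its log2 fold change was -0.16 ± 0.11 (SE; adjusted p = 0.178) as deposited and -1.10 once ratio-scaled. Sdhb, its iron-sulfur partner, was at 180.5, 222 and 191 TPM in labelled knockout livers, against 152, 188 and 171 TPM in WT livers, also with overlap, and had a log2 fold change of 0.21 as deposited. Against each other the pair did separate: Sdha relative to Sdhb was 0.742, 0.655 and 0.784 in labelled knockout livers, against 0.948, 0.926 and 0.955 in WT livers. The ratio averaged 0.727 ± 0.0654 in labelled knockout livers and 0.943 ± 0.0148 in WT livers (SD, n = 3 each). Sdhc and Sdhd, which anchor the complex in the membrane, had log2 fold changes of 0.18 and 0.22, neither called as deposited.

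In complex III, which passes electrons from coenzyme Q to cytochrome c, 4 of 9 members were called higher as deposited, with a median log2 fold change of 0.17, and once ratio-scaled 8 were lower and the median was -0.77. The 44.4% called higher stands against the 74.5% of all tested genes. Uqcr10, a small subunit next to cytochrome c1, stood apart from the rest. It was at 384, 439.7 and 415 TPM in labelled knockout livers, against 179, 238 and 216 TPM in WT livers. The lowest labelled knockout liver was above the highest WT liver, with a log2 fold change of 0.98 ± 0.13 (SE; adjusted p = 5.93e-05) as deposited and 0.034 (adjusted p = 0.822) once ratio-scaled. Uqcr11, another small subunit, was at 394, 428 and 396 TPM in labelled knockout livers, against 337, 422 and 375 TPM in WT livers, with overlap. Uqcr10 relative to Uqcr11 was 0.974, 1.03 and 1.05 in labelled knockout livers, against 0.529, 0.562 and 0.576 in WT livers, so that the pair was near parity in all 3 labelled knockout livers and not in WT livers.

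Uqcrfs1, the Rieske iron-sulfur protein that takes electrons from coenzyme Q, was at 122, 149.9 and 132 TPM in labelled knockout livers, against 108, 113 and 110.0 TPM in WT livers. The groups did not overlap, and the log2 fold change was 0.28 ± 0.10 (SE; adjusted p = 0.0298) as deposited and -0.66 once ratio-scaled. The deposited call was lost when either the second or the third labelled knockout library, or the first or the third WT library, was left out (limma adjusted p of 0.105, 0.0727, 0.0717 and 0.0733). Uqcrh, the hinge protein, was at 449.9, 519 and 518 TPM in labelled knockout livers, against 332, 439 and 372 TPM in WT livers. It had a log2 fold change of 0.38 as deposited and -0.56 once ratio-scaled, and the deposited call was lost without the third labelled knockout library, the first WT library or the third WT library. Cyc1, cytochrome c1, was at 189, 217 and 204 TPM in labelled knockout livers, against 169.5, 195 and 178 TPM in WT livers. It overlapped and was not called as deposited (0.17).

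Cycs encodes cytochrome c, the soluble carrier between complexes III and IV and, once released, a trigger of apoptosis. It was at 142, 149 and 148 TPM in labelled knockout livers, against 101, 96.7 and 101 TPM in WT livers. The 2 groups were far apart and each was tight, with a log2 fold change of 0.55 ± 0.089 (SE; adjusted p = 0.000249) as deposited and -0.39 (adjusted p = 0.00677) once ratio-scaled. Cycs relative to Cyc1 averaged 0.721 ± 0.0318 in labelled knockout livers and 0.554 ± 0.0524 in WT livers (SD, n = 3 each), with no overlap.

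**Figure D3:**
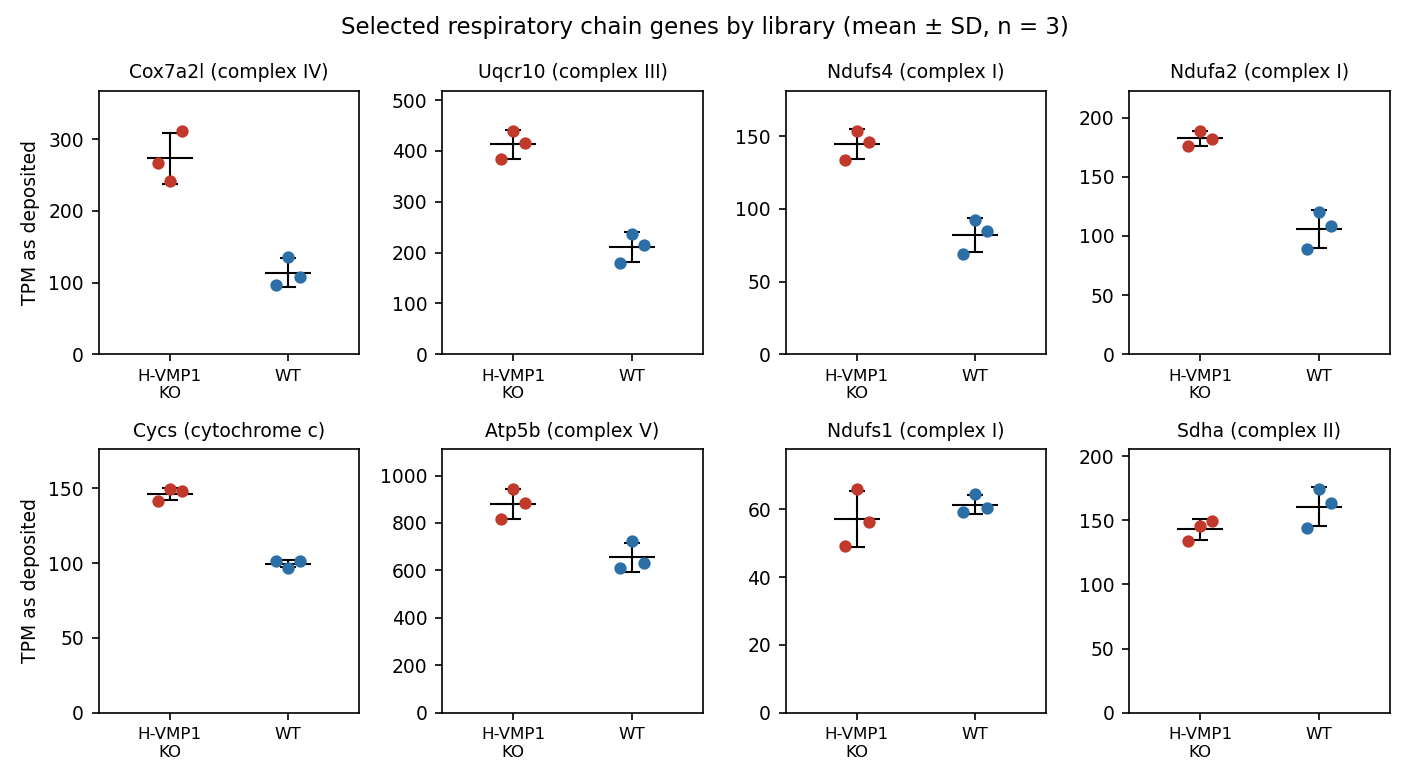
TPM as deposited (vertical axis) of 8 respiratory chain genes in each library, labelled knockout left of WT, with the mean ± SD of 3 libraries in black. Cox7a2l, Uqcr10, Ndufs4, Ndufa2, Cycs and Atp5b are higher in all 3 labelled knockout livers as deposited (once ratio-scaled the fold changes of Ndufs4, Ndufa2, Cycs and Atp5b turn negative), while Ndufs1 and Sdha overlap.

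In complex IV, cytochrome c oxidase, 6 of 15 tested members were called higher and 1 lower as deposited, with a median log2 fold change of 0.23, and once ratio-scaled 1 was higher, 13 were lower and the median was -0.71. The 6 higher (40%, against 74.5% of all tested genes) and the 1 higher once ratio-scaled include Cox6a2. The deposited median was 0.12 without the second labelled knockout library. Cox4i1, the ubiquitous isoform of the subunit through which ATP inhibits the enzyme, was at 729.9, 803 and 802 TPM in labelled knockout livers, against 510.2, 605 and 574 TPM in WT livers. Its isoform Cox4i2, known from lung and from low oxygen, stayed below 1 TPM in every library. Cox4i1 had a log2 fold change of 0.47 ± 0.11 (SE; adjusted p = 0.00356) as deposited and -0.47 once ratio-scaled, without overlap. Cox5a was at 303, 361 and 319.8 TPM in labelled knockout livers, against 198, 242 and 237 TPM in WT livers. It did not overlap, with a log2 fold change of 0.54 ± 0.12 (SE; adjusted p = 0.00209) as deposited and -0.40 once ratio-scaled. Cox5b, a zinc-binding subunit on the matrix side, overlapped at 529.8, 562 and 517 TPM in labelled knockout livers, against 474, 565 and 508 TPM in WT livers. Cox5a relative to Cox5b averaged 0.610 ± 0.0358 in labelled knockout livers and 0.438 ± 0.0260 in WT livers (SD, n = 3 each), without overlap.

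Of the ratios computed between subunits above 5 TPM, that of Cox7a2l to Cox7a2 differed most between groups. Cox7a2l, also called SCAF1, is an isoform that joins complexes III and IV in a supercomplex rather than serving as an ordinary subunit, and C57BL/6 mice are known to carry a short allele of it. Cox7a2l was at 267, 242 and 312 TPM in labelled knockout livers, against 96.9, 136 and 108 TPM in WT livers. All 3 labelled knockout livers were high and none came near the WT livers. The log2 fold change was 1.27 ± 0.15 (SE; adjusted p = 2.67e-05) as deposited and 0.33 (adjusted p = 0.0503) once ratio-scaled, and it was positive under all 4 scalings. Cox7a2, the liver isoform, was at 235, 298 and 238 TPM in labelled knockout livers, against 198, 233 and 225 TPM in WT livers, and was not called as deposited (0.23). Cox7a2l relative to Cox7a2 was 1.14, 0.812 and 1.31 in labelled knockout livers, against 0.490, 0.584 and 0.479 in WT livers. Cox7a1, the heart and muscle isoform, was near the floor at 1.68, 2.22 and 1.65 TPM in labelled knockout livers, against 2.21, 2.58 and 2.3 TPM in WT livers, and made up 0.713% ± 0.0260 in labelled knockout livers and 1.07% ± 0.0511 in WT livers of Cox7a1 and Cox7a2 together, without overlap.

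Cox6a2, the heart and skeletal muscle isoform of Cox6a at chr7:128205435-128206387 (GRCm38, minus strand), was at 4.35, 4.13 and 2.69 TPM in labelled knockout livers, against 0.14, 0.06 and 0 TPM in WT livers. The levels were low in all, and the groups did not overlap. On the log2(TPM + 1) scale the log2 fold change was 2.13 as deposited and 1.74 once ratio-scaled, given as a description only, since no WT library reached the filter's minimum. Cox6a1, the liver isoform, was at 545, 567 and 539.9 TPM in labelled knockout livers, against 461, 493 and 443 TPM in WT livers, so Cox6a2 made up 0.670% ± 0.155 in labelled knockout livers and 0.0142% ± 0.0153 in WT livers of the pair (SD, n = 3 each). Of 8 muscle markers none passed the filter, their sum was 0.45 to 0.73 TPM in labelled knockout livers and 0.12 to 0.37 TPM in WT livers, and Myh6, Myh7, Myh4 and Mb were listed at 0 in all libraries. Cox6a2 overlaps Itgad on the opposite strand, which was at 0.05, 0.07 and 0.12 TPM in labelled knockout livers and listed at 0 in all 3 WT livers.

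Ndufa4l2, a paralog of Ndufa4 known to be induced by low oxygen, was the 1 member called lower as deposited. It was at 1.77, 2.58 and 2.61 TPM in labelled knockout livers, against 2.58, 3.79 and 3.85 TPM in WT livers. The groups overlapped by a small margin, since 2 labelled knockout livers were at or just above the lowest WT liver, and the log2 fold change was -0.41 ± 0.16 (SE; adjusted p = 0.0337) as deposited and -1.09 once ratio-scaled. The deposited call was lost without the first labelled knockout library, the second WT library or the third WT library, with an adjusted p of 0.12 in each. Ndufa4 was at 549, 624 and 567 TPM in labelled knockout livers, against 453, 559.7 and 521 TPM in WT livers and was not called as deposited. The remaining isoform pairs were almost wholly of the ubiquitous form. Cox6b1 was at 749.9, 906 and 829.6 TPM in labelled knockout livers, against 608, 710 and 664 TPM in WT livers, with a log2 fold change of 0.32 as deposited (called; -0.62 once ratio-scaled), and its testis isoform Cox6b2 was at 1.07, 2.15 and 0.9 TPM in labelled knockout livers, against 0.36, 0.4 and 0.51 TPM in WT livers. The Cox6b1 call was lost without the second or the third labelled knockout library or the first or the third WT library. Cox8a was at 542, 562 and 545 TPM in labelled knockout livers, against 377, 452 and 363 TPM in WT livers, with 0.47 as deposited (called; -0.47 once ratio-scaled), against at most 0.13 TPM of the muscle isoform Cox8b in any library. Cox7b was at 255, 294 and 261 TPM in labelled knockout livers, against 224, 261 and 242 TPM in WT livers, with overlap and no call as deposited.

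**Figure D4:**
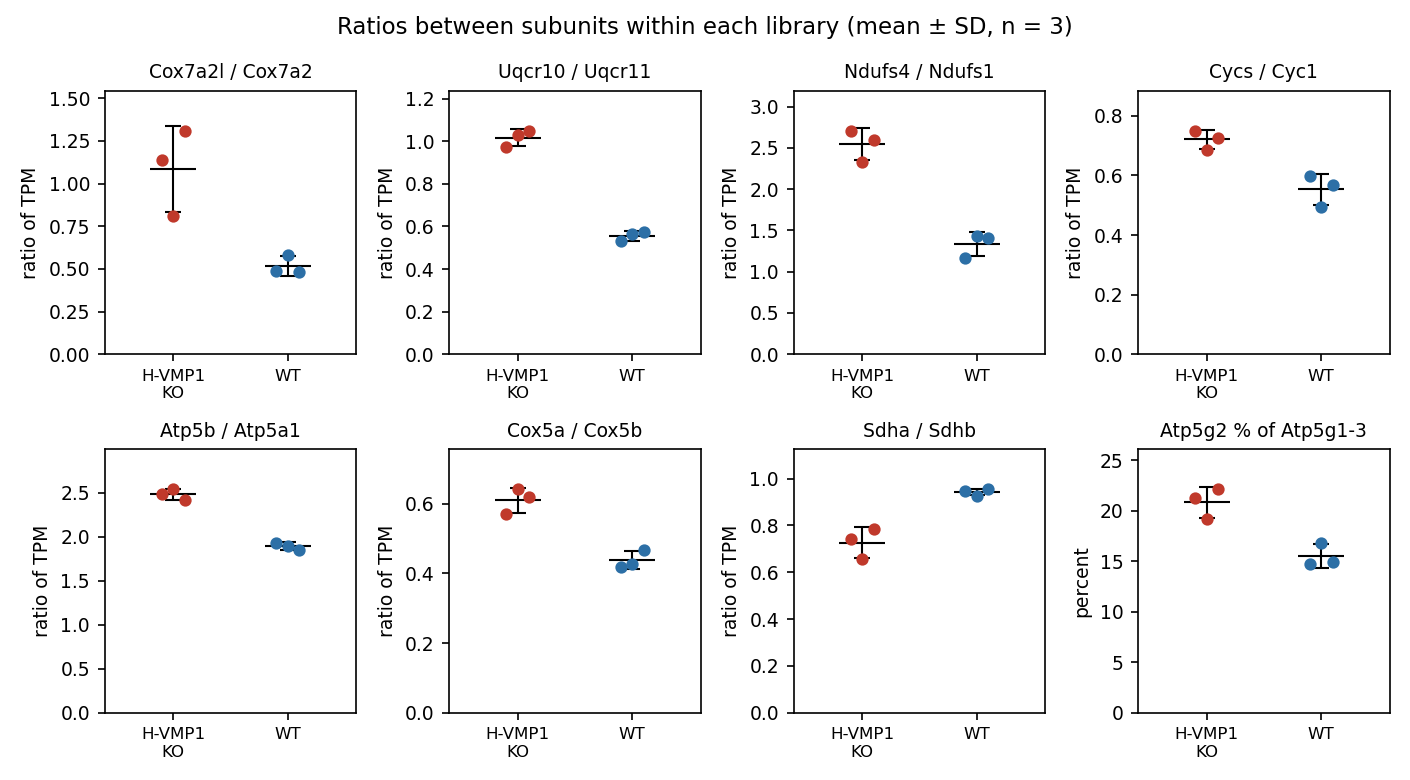
Ratios of TPM between subunits of the same complex (Cycs and Cyc1 belong to adjoining steps) and the percent of Atp5g1 to Atp5g3 held by Atp5g2, in each library, labelled knockout left of WT, with the mean ± SD of 3 libraries in black. These values do not depend on the scaling by 1 factor per library. Of the 8 shown, 7 are higher in all 3 labelled knockout livers and Sdha relative to Sdhb is lower in all 3. The ratios were chosen with the values known, so this count is a description only. Among ratios computed but not shown, the Atp5g1 percent and Ndufb4c relative to Ndufb4 overlapped.

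In complex V, 9 of 17 tested members were called higher as deposited and none lower, with a median log2 fold change of 0.31, and once ratio-scaled none were higher, 16 were lower and the median was -0.64. The 52.9% called higher stands against the 74.5% of all tested genes. The 5 subunits of the catalytic F1 head had a median of 0.43 as deposited, with 3 called higher, and the 12 other tested members had a median of 0.27, with 6 called higher. Atp5b, the catalytic beta subunit, had a log2 fold change of 0.43 ± 0.12 (SE; adjusted p = 0.00720) as deposited and -0.51 once ratio-scaled, without overlap in the TPM given earlier. Atp5a1, the alpha subunit with which it alternates in the head, was at 328, 371 and 366 TPM in labelled knockout livers, against 316, 382 and 341 TPM in WT livers, with overlap and no call as deposited (0.039). Atp5b relative to Atp5a1 was 2.49, 2.54 and 2.42 in labelled knockout livers, against 1.94, 1.90 and 1.85 in WT livers. These ratios were tight within groups and separated, at 2.48 ± 0.0604 in labelled knockout livers and 1.89 ± 0.0435 in WT livers (SD, n = 3 each).

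Atp5d, the delta subunit of the central stalk, was at 363, 391 and 399.8 TPM in labelled knockout livers, against 238, 302 and 248 TPM in WT livers. The groups did not overlap, with a log2 fold change of 0.56 ± 0.12 (SE; adjusted p = 0.00164) as deposited and -0.39 once ratio-scaled. Atp5s, a coupling factor of low abundance, was at 9.14, 9.51 and 9.56 TPM in labelled knockout livers, against 4.83, 5.23 and 5.52 TPM in WT livers. It was separated and tight in both groups, with 0.75 ± 0.096 (SE; adjusted p = 5.00e-05) as deposited and -0.076 (adjusted p = 0.496) once ratio-scaled.

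Atp5g1, Atp5g2 and Atp5g3 encode the same mature c subunit of the proton-driven ring, with different targeting sequences. Atp5g1 was at 280.2, 337 and 266 TPM in labelled knockout livers, against 222, 273 and 256 TPM in WT livers. Atp5g2 was at 178, 189 and 192 TPM in labelled knockout livers, against 102, 139.9 and 115 TPM in WT livers, and Atp5g3 at 379, 461 and 408 TPM in labelled knockout livers, against 372, 418 and 399 TPM in WT livers. Atp5g2 alone of the 3 did not overlap, with a log2 fold change of 0.65 ± 0.12 (SE; adjusted p = 0.000757) as deposited and -0.29 once ratio-scaled. Its share of the 3 transcripts averaged 20.8% ± 1.54 in labelled knockout livers and 15.5% ± 1.17 in WT livers (SD, n = 3 each), without overlap. That of Atp5g3 averaged 46.4% ± 0.952 in labelled knockout livers and 51.9% ± 1.56 in WT livers, also without overlap, and that of Atp5g1 32.8% ± 1.78 in labelled knockout livers and 32.6% ± 0.700 in WT livers, with overlap.

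Within groups the members were mostly high or low in the same libraries. As deposited, the first WT library held the lowest of the 3 WT values in 68 of 82 members, against 38.6% of all tested genes. The second WT library held the highest in 69, against 60.2% of all tested genes. Among labelled knockout livers the second was the highest in 64 of 82 members, against 25.2% of all tested genes, and the first was the lowest in 56, against 21.7%. Once ratio-scaled, the second labelled knockout library was the highest in 81 of 82 (39.0% of all tested genes) and the first the lowest in 76 (36.8%). Among WT livers the first was still the lowest, in 73 (43.6%), but the highest was then the third in 64 (33.9%) and the second in 15 (36.1%). The median coefficient of variation within a group was 6.65% in labelled knockout livers and 8.69% in WT livers.

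The 13 subunits encoded by mitochondrial DNA are the partners of the nuclear ones in complexes I, III, IV and V. As deposited none of them were higher and 5 were lower, with a median log2 fold change of -0.37 (background 74.5% higher and 10.7% lower). Once ratio-scaled all 13 were lower, with a median of -1.31 (background 35.1% higher and 36.6% lower). Quantile normalization called 4 higher and 5 lower (background 35.3% and 35.4%). The 13 held 7.52, 9.46 and 6.83% of all TPM in labelled knockout livers, against 11.2, 8.92 and 8.92% in WT livers, with overlap (exact permutation p = 0.3, two-sided). The largest decrease was in mt-Co3, a core subunit of complex IV, which was at 332, 347 and 397 TPM in labelled knockout livers, against 633, 646 and 929 TPM in WT livers, with a log2 fold change of -1.02 ± 0.16 (SE; adjusted p = 0.000223) as deposited and -1.96 once ratio-scaled. The summed nuclear members relative to the 13 were 0.258, 0.228 and 0.297 in labelled knockout livers, against 0.139, 0.207 and 0.190 in WT livers. This ratio did not overlap, and the exact permutation p was 0.1 (two-sided), the smallest that 3 against 3 can give. Nuclear copies of mitochondrial genes can take up part of these reads, and their part was not tested.

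Genes whose products assemble the complexes were taken as separate lists. Counts of this and the next paragraphs are to be read against the 74.5% of all tested genes higher and 10.7% lower as deposited, the 35.1% and 36.6% once ratio-scaled, and the all-gene medians of 0.77 and -0.01. Of 23 complex IV assembly factors 18 were higher and 1 lower, with a median log2 fold change of 0.66, close to the all-gene share and median, and once ratio-scaled 4 were higher and 10 lower. Cox17, which carries copper to the enzyme, was at 269, 263 and 258 TPM in labelled knockout livers, against 56.5, 62.0 and 62.8 TPM in WT livers. It stood far above WT in all 3 livers, with 2.11 ± 0.093 (SE; adjusted p = 7.76e-08) as deposited and 1.17 (adjusted p = 1.70e-05) once ratio-scaled. Cox19, another copper protein of the intermembrane space, had 1.70 and 0.77, both called. Sco2, which inserts copper into the enzyme, was lower under both (-0.83 and -1.74).

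Among the 16 complex I assembly factors found, 10 were higher and 1 lower as deposited (none higher and 11 lower once ratio-scaled). As deposited they were led by Nubpl (1.08, and 0.28 without a call once ratio-scaled) and then Ndufaf5. Tmem126b was lower (-0.27 as deposited and -1.10 once ratio-scaled). Of 4 factors of complex II, 3 were higher as deposited (none higher and 2 lower once ratio-scaled). Sdhaf2 had the most, at 1.08 as deposited and 0.18, not called, once ratio-scaled. Of 6 factors of complex III, 5 were higher as deposited (1 higher and 4 lower once ratio-scaled), and Uqcc2, at 1.22 as deposited and 0.30 once ratio-scaled, was higher with both. Among 4 assembly factors of complex V and its inhibitor, 4 were higher and 1 lower as deposited, and 2 and 2 once ratio-scaled. Atpif1, the inhibitor that blocks ATP hydrolysis by the synthase, was at 173, 170.4 and 162 TPM in labelled knockout livers, against 28.7, 30.9 and 29.4 TPM in WT livers. Each group was tight and the groups were far apart, with 2.47 ± 0.088 (SE; adjusted p = 3.33e-08) as deposited and 1.54 (adjusted p = 2.66e-06) once ratio-scaled. Fmc1, an assembly factor, was lower under both (-0.74 and -1.64).

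The supply of electrons through coenzyme Q was mixed. Of 13 genes of coenzyme Q synthesis 8 were higher and 2 lower as deposited, and 3 and 8 once ratio-scaled. Coq8b was at 63.5, 61.2 and 57.5 TPM in labelled knockout livers, against 7.91, 12.5 and 9.45 TPM in WT livers, with 2.52 as deposited and 1.62 once ratio-scaled, and its paralog Coq8a was at 44.0, 68.8 and 57.3 TPM in labelled knockout livers, against 111, 99.8 and 99.4 TPM in WT livers, with -0.88 and -1.81. The 2 paralogs, kinase-like proteins that both support coenzyme Q synthesis, thus moved in opposite directions under both, without overlap. Of 9 genes for other enzymes that feed electrons to coenzyme Q, 7 were lower and 2 higher as deposited, and 8 and 1 once ratio-scaled. The proline dehydrogenases Prodh2 (-3.50) and Prodh (-1.64) fell the most, and sulfide quinone oxidoreductase, Sqor, was higher (1.36 as deposited, 0.42 once ratio-scaled).

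**Figure D5:**
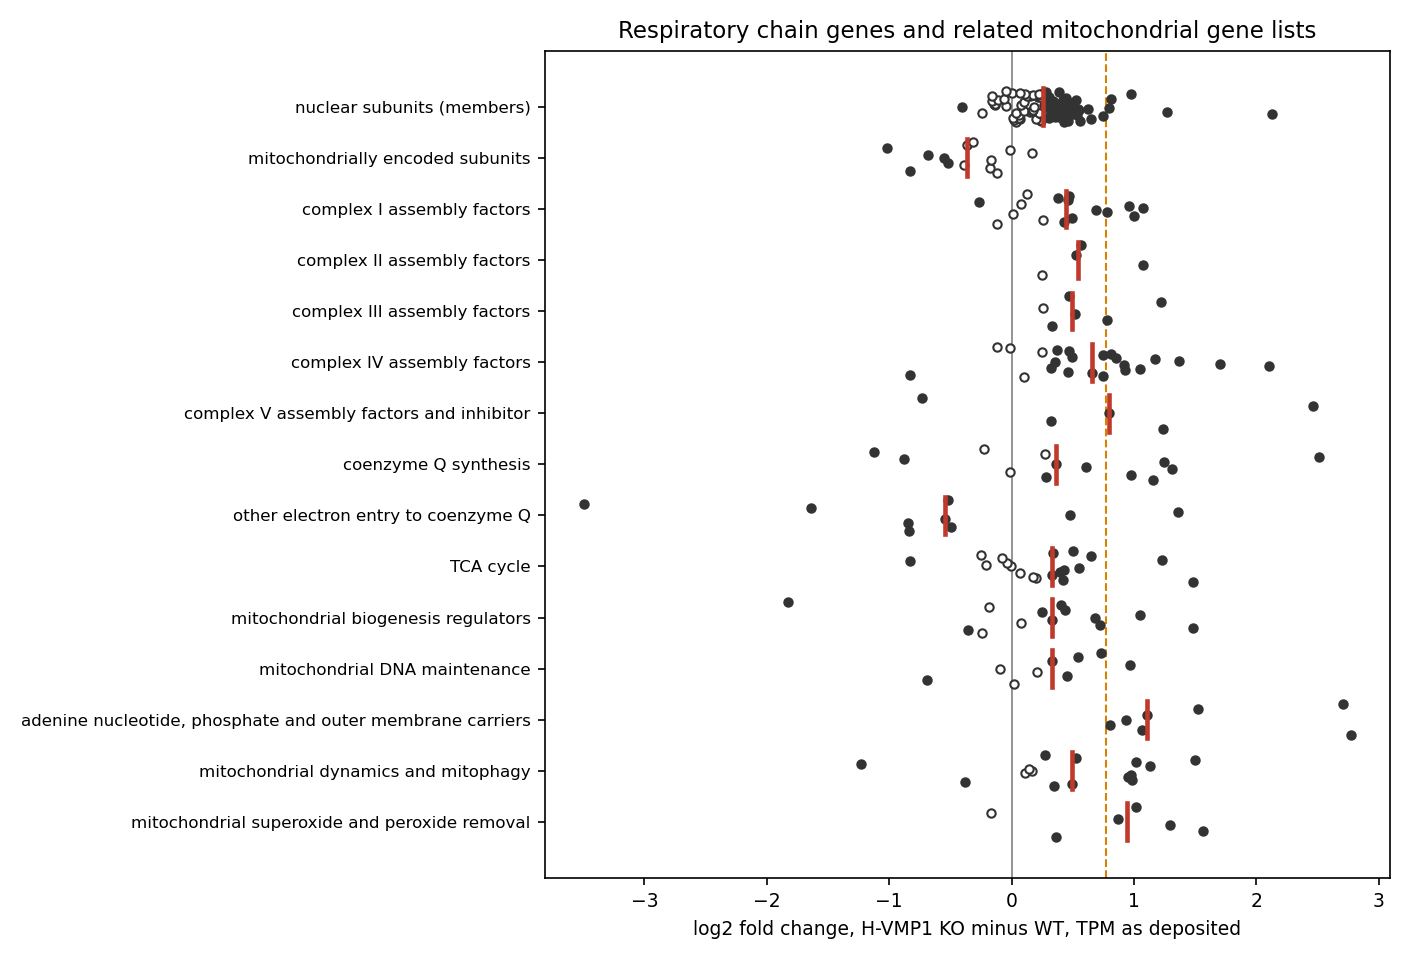
Log2 fold change as deposited (horizontal axis, labelled knockout minus WT) of each tested gene in the nuclear subunits and in lists of related mitochondrial genes; filled points have a limma adjusted p under 0.05, red bars are list medians, and the dashed line is the median of all tested genes (0.77). The subunits have a median of 0.26 (-0.68 once ratio-scaled) and an interquartile range of 0.34. They run from Ndufa4l2 at -0.41 to Cox6a2 at 2.13, the last with its direction fixed by the filter. Single genes of the other lists run from Prodh2 at -3.50 to Slc25a4 at 2.78. The spread within each of these lists was not computed, and some are narrow, such as the complex II assembly factors (0.25 to 1.08).

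Markers of liver cell types also differed between the groups. Of 10 hepatocyte markers 8 were lower and none higher as deposited, and their sum was 23383 to 26475 TPM in labelled knockout livers and 51118 to 70483 TPM in WT livers. Of the other lists, all 8 endothelial markers were higher as deposited and 5 once ratio-scaled, with sums of 149 to 189.8 TPM in labelled knockout livers and 46.1 to 55.9 TPM in WT livers. Some markers of the remaining lists reached 1 TPM in no WT library, so the filter fixed their direction, and they are left out of the next counts. Without Cd14, 11 of 11 macrophage markers were higher both as deposited and once ratio-scaled, and the sum of the whole list was 1694 to 2203 TPM in labelled knockout livers and 149 to 255 TPM in WT livers. Without Acta2, 8 of 8 stellate cell and fibroblast markers were higher in both. The whole list, Acta2 included, summed to 272 to 321 TPM in labelled knockout livers and 47.3 to 51.5 TPM in WT livers. Of the tested markers, all but 1 cholangiocyte marker (Spp1), all but 1 neutrophil marker (S100a9) and every B cell and T and NK cell marker entered only through labelled knockout livers, so sums alone are given. The 5 cholangiocyte markers summed to 123 to 172 TPM in labelled knockout livers and 16.6 to 31.8 TPM in WT livers. The 5 neutrophil markers summed to 28.5 to 59.6 TPM in labelled knockout livers and 2.03 to 3.66 TPM in WT livers. The 4 B cell markers summed to 3.94 to 4.71 TPM in labelled knockout livers and 0.89 to 1.17 TPM in WT livers, and the 6 T and NK cell markers to 5.06 to 8.56 TPM in labelled knockout livers and 0.95 to 1.29 TPM in WT livers. Once ratio-scaled, every hepatocyte marker was lower. No marker of these lists was at 0 in all libraries, and none of 6 adipocyte markers passed the filter. In bulk tissue, fewer cells of a type and less RNA per cell cannot be told apart, and the part of this shift in the respiratory chain values was not tested.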

How the data were processed

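RNA from 6 liver samples, 3 per group, was measured by sequencing. The authors deposited 1 table of TPM values with Ensembl identifiers and 1 column per library, made, per the submitters' processing notes, with tools that include RSEM, STAR 2.6.1c and edgeR on mm10, in no stated role or order. TPM is corrected for transcript length and scaled to a fixed total, so the depth and counting intervals are unknown and no count model was used. Strand counting is not given in the sources used here. All 55536 identifiers matched GENCODE M21 on GRCm38 with the same symbols, and 0 sample columns stayed unmatched.

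The labels gave the groups. The 12796 genes that reached 1 TPM in at least 3 libraries were fitted on log2(TPM + 1) with limma 3.58.1 in R 4.3.3 (empirical Bayes with trend and robust variances), with Benjamini-Hochberg adjustment over all of them at 0.05. Every adjusted p is from this test. Fold changes are labelled knockout minus WT on that scale, which understates changes of low genes. The fit was tested on simulated data in which 200 genes were changed, as many up as down. That simulation held no shift of most genes and no fixed total, so it did not test the choice of scaling. Two-sided exact permutation tests served for single measures per library. Alternatives changed the scaling, pseudocount, filter, variance model, threshold and replicate block, or dropped 1 library at a time. The members, gene lists, ratios and printed promoters were chosen with earlier results of these data known. Values per library are given for 12 catalytic or defining subunits, for isoform families, and for up to 3 called members per complex and direction with the largest change and a mean of at least 5 TPM. Uqcr11, Cox5b and Ndufb4 with Ndufb4c were added as partners in ratios after their values were seen. Other lists are represented by up to 2 called genes per direction. Promoter windows came from RefSeq (GRCm38.p6), and 67 members had one. Python 3.11.15 and matplotlib 3.10.9 were used for figures.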

Additional observations from a re-analysis of the deposited data

How the results depend on the processing

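Scaling decided the direction of most members. As deposited 42 members (Cox6a2 included, whose direction the filter fixed) were higher and 1 was lower, with a median log2 fold change of 0.26. With median-of-ratios scaling 1 was higher and 76 lower (median -0.68), with quantile normalization 6 and 34 (-0.20), and rescaled without the Mup, mitochondrially encoded and 20 most abundant genes 8 and 26 (-0.13). Each of these counts of members higher also includes Cox6a2. In that order of the 3 scalings, the median was -0.64, -0.20 and -0.089 for complex I, -0.74, -0.28 and -0.19 for complex II, -0.77, -0.21 and -0.22 for complex III, -0.71, -0.23 and -0.16 for complex IV, and -0.64, -0.092 and -0.083 for complex V, all reversed from the deposited sign. Relative to all tested genes the member median was -0.51 as deposited, -0.67 with median-of-ratios scaling, -0.19 with quantile normalization, -0.65 with a pseudocount of 0.1, -0.21 with a pseudocount of 5, and 0.12 with no filter, where many genes near 0 enter the comparison.

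Of the 82 tested members 71 had a positive log2 fold change as deposited, and 68 of these turned negative with median-of-ratios scaling, 53 with quantile normalization and 48 with rescaling, while no negative one turned positive. The values below cover the 32 tested members that the naming rule takes, so that Uqcr11, Cox5b, Ndufb4, Ndufb4c, Sdhc and Sdhd are not among them, and list those that turned sign and were called under at least 1 of the 2 settings. Median-of-ratios scaling turned 25 of them, which were Atp5a1 (-0.90), Atp5b (-0.51), Atp5d (-0.39), Atp5g1 (-0.71), Atp5g2 (-0.29), Atp5g3 (-0.88), Atp5s (-0.076), Cox4i1 (-0.47), Cox5a (-0.40), Cox6a1 (-0.70), Cox6b1 (-0.62), Cox7a2 (-0.71), Cox7b (-0.79), Cox8a (-0.47), Cyc1 (-0.77), Cycs (-0.39), Ndufa12 (-0.32), Ndufa2 (-0.14), Ndufa4 (-0.76), Ndufs4 (-0.12), Ndufs7 (-0.63), Ndufv1 (-0.70), Sdhb (-0.72), Uqcrfs1 (-0.66) and Uqcrh (-0.56). Quantile normalization turned 13, and 5 more that were called under neither setting, and the 13 were Atp5a1 (-0.35), Atp5b (-0.11), Atp5g3 (-0.38), Atp5s (-0.040), Cox4i1 (-0.13), Cox6a1 (-0.35), Cox6b1 (-0.24), Cox8a (-0.038), Ndufa4 (-0.37), Ndufs7 (-0.29), Ndufv1 (-0.30), Uqcrfs1 (-0.21) and Uqcrh (-0.092). Rescaling turned 6, and 8 more that were called under neither setting, and the 6 were Atp5a1 (-0.35), Atp5g3 (-0.32), Cox6b1 (-0.064), Ndufs7 (-0.081), Uqcrfs1 (-0.11) and Uqcrh (-0.0046).

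With an adjusted p threshold of 0.01, 26 members were higher and 0 lower. The count lower was 0 with no filter and 0 with a mean of at least 5 TPM, where Ndufa4l2 is lost or not tested. Pseudocounts, filters and plain empirical Bayes gave 37 to 43 members higher and 0 or 1 lower. With Ndufa4 and Ndufa4l2 counted in complex I, the medians were 0.29 for complex I and 0.24 for complex IV. Leaving out 1 library gave 27 to 49 members higher and 0 to 2 lower, member medians of 0.21 to 0.32, and medians relative to all genes of -0.57 to -0.38. Medians under leave-one-out were 0.23 to 0.36 for complex I, 0.13 to 0.27 for complex II, 0.12 to 0.22 for complex III, 0.12 to 0.27 for complex IV and 0.21 to 0.38 for complex V. With the replicate block, 39 members were higher and 1 lower, and none of the named members changed its call. Same-numbered libraries deviated from their group means with correlations of 0.076, 0.040 and -0.115, and not every library correlated best with its own number, so the numbers were not used as pairs. The cause of these changes was not tested.

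The limits are 3 libraries a group, an unknown depth, a targeted gene that does not check the labels, and a fixed total in which 1 abundant family differs strongly between groups. Ratios within a library avoid the last of these.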

Other observations

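Related mitochondrial gene lists held single genes with large fold changes. Their counts stand against 74.5% of all tested genes higher and 10.7% lower as deposited, and 35.1% higher and 36.6% lower once ratio-scaled. All 7 tested genes of the adenine nucleotide, phosphate and outer membrane carriers were higher as deposited and 3 of them once ratio-scaled, with none lower in either. Slc25a4, the heart and muscle isoform of the ADP/ATP carrier, was at 15.4, 16.8 and 14.9 TPM in labelled knockout livers, against 1.23, 1.66 and 1.44 TPM in WT livers. Ucp2, an inner membrane carrier abundant in macrophages, was at 91.0, 95.1 and 101 TPM in labelled knockout livers, against 12.6, 13.7 and 15.3 TPM in WT livers. Both stayed well separated, with log2 fold changes of 2.78 and 2.70 as deposited and 2.04 and 1.79 once ratio-scaled. The macrophage markers summed to 1694 to 2203 TPM in labelled knockout livers and 149 to 255 TPM in WT livers, and their part in these values was not tested. Of 6 genes for removal of mitochondrial superoxide and peroxide, 5 were higher as deposited and 2 were higher and 2 lower once ratio-scaled. Prdx3, a mitochondrial peroxiredoxin, was at 159, 149 and 166 TPM in labelled knockout livers, against 53.3, 54.2 and 50.5 TPM in WT livers, with a log2 fold change of 1.56 as deposited and 0.63 once ratio-scaled, called in both.

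Of 19 TCA cycle genes 10 were higher and 1 lower as deposited, and 1 higher and 17 lower once ratio-scaled. Cs, citrate synthase, was at 117, 107 and 127 TPM in labelled knockout livers, against 44.0, 43.5 and 36.2 TPM in WT livers, with 1.48 as deposited and 0.55 once ratio-scaled, both called. Fh1, fumarate hydratase, was at 100.4, 145 and 95.8 TPM in labelled knockout livers, against 206, 198 and 192 TPM in WT livers, lower under both scalings (-0.83 and -1.76). Of 13 regulators of mitochondrial biogenesis 8 were higher and 2 lower as deposited, and 1 and 9 once ratio-scaled. Pprc1, a coactivator of the PGC-1 family, was at 15.4, 14.3 and 17.6 TPM in labelled knockout livers, against 5.58, 5.05 and 4.42 TPM in WT livers, while Ppara, the nuclear receptor of hepatic fatty acid oxidation, was at 6.4, 5.45 and 7.88 TPM in labelled knockout livers, against 24.1, 27.6 and 25.3 TPM in WT livers. The pair kept opposite directions under both scalings (0.64 and -2.68 once ratio-scaled). Fundc1, a mitophagy receptor, was higher under both (1.50 and 0.66), and Bnip3, another receptor, lower under both (-1.23 and -2.16). Of 9 genes of mitochondrial DNA maintenance 5 were higher and 1 lower as deposited, and 1 and 7 once ratio-scaled. Rrm2b, which reached 1 TPM in no WT library, was among those higher, and without it the counts were 4 and 1 of 8 as deposited and 0 and 7 once ratio-scaled.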
